A study of Homo sapiens with 24 samples.

Results

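The response of HAP1 cells to lomustine was compared between the S51A line, whose translation factor eIF2-alpha lacks the serine that is phosphorylated under stress, and lines that keep both that serine and the kinase HRI. Of the 24 arrays of the series, 14 entered the comparison. HAP1 is a near-haploid human line that descends from the chronic myelogenous leukaemia line KBM-7, and all the lines were bought from one supplier, Horizon Discovery. The comparison lines were the parental line (PAR) and lines named for the loss of one other eIF2-alpha kinase each, namely GCN2, PKR and PERK. Each line had an arm with no drug and an arm with lomustine, a chloroethylating nitrosourea that alkylates and crosslinks DNA, at 200 µM for 2 h. PAR and S51A had 2 arrays per arm, lettered A and B, and GCN2, PKR and PERK had 1 each, so the S51A response rested on 2 against 2 arrays and the comparison response on 5 against 5. The labels do not say whether A and B were separate cultures, so the spread between arrays A and B may be technical. The p-values measure that spread together with differences in drug response between PAR, GCN2, PKR and PERK. The same pooled spread was applied to S51A. Each line is a single edited line, and a difference between lines other than the named change cannot be told apart from that change.

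Phosphorylation of eIF2-alpha at that serine by HRI, GCN2, PKR or PERK lowers general translation initiation while favouring a few messages, ATF4 among them. ATF4 and its partners then raise transcripts for amino acid supply, redox balance and cell fate, a program known as the integrated stress response. Immediate-early genes such as EGR1, FOSB and DUSP1 respond through kinase cascades and serum response factor or cAMP-responsive sites, and heat shock genes through HSF1. The comparison asks which parts of the lomustine response are present and which are reduced when the serine is missing.

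Promoters of 4 genes discussed below are shown with matches of motifs linked to these programs. Whether these matches act in these cells was not tested. Each stretch holds the 250 bases before the start site on the gene's own strand, from RefSeq on GRCh38.p14, with matches of the searched motifs in capitals. The motifs were the C/EBP-ATF response element (TGATGNAA), the cAMP response element (TGACGTCA), the heat shock element and the CArG box bound by serum response factor, each on both strands. CHAC1 (chr15:40953221-40953470, plus strand) and ATF3 (chr1:212565157-212565406, plus strand) had a match of the first. EGR1 (chr5:138465229-138465478, plus strand) had 2 CArG boxes and DUSP1 (chr5:172771196-172771445, minus strand) a cAMP response element.
CHAC1: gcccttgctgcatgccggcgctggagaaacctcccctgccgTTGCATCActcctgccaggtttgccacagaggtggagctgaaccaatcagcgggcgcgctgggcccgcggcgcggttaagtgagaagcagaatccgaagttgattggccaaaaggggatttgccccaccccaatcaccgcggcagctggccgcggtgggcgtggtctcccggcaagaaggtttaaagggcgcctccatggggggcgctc
ATF3: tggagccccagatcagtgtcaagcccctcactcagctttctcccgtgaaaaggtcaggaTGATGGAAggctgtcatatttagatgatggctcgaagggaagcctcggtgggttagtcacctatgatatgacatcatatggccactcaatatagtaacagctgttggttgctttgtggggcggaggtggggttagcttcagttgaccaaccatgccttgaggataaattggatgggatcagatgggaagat
EGR1: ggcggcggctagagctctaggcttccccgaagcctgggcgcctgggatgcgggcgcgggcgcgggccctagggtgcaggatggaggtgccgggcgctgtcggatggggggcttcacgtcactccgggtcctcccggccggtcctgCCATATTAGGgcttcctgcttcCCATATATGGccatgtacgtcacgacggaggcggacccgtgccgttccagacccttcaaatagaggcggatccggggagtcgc
DUSP1: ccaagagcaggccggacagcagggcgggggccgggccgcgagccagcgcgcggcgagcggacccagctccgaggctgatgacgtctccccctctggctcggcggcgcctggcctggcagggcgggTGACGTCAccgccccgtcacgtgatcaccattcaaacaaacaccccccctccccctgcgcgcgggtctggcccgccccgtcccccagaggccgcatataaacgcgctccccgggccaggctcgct
The CHAC1 match lies at -209 to -202 on the opposite strand and the ATF3 match at -191 to -184. ASNS, the asparagine synthetase gene, had one at -68 to -61. Over 27305 promoters of this length, 3.19% held TGATGNAA, 1.77% TGACGTCA, 1.14% a CArG box and 0.439% the heat shock element. The search covered 20 promoters chosen after values were seen. Only the first promoter listed for each gene was searched, so any other start site, of ATF3 or another gene, was not covered. No match of these 4 motifs lay in the stretches of DDIT4, SESN2, ULBP1, ARRDC3, DDIT3 or BCL6, nor in those of the immediate-early genes FOSB and JUN, the heat shock genes DNAJB1, DNAJB4, BAG3 and ZFAND2A, or SNHG5, SNHG12 and SNHG17, which says only that these letters are not in this window.

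All levels below are log2 signals, in which 1 unit is a doubling, and the median of all values on the arrays was 2.42. The array medians ran from 2.34 to 2.58. S51A lomustine B stood apart, with 8.72% of probe sets more than 1 unit from the median of the other arrays, and PAR lomustine A followed with 3.38%. The remaining 12 arrays used lay at 0.927% to 2.80%. Results are therefore also given without these 2 arrays, which leaves 1 S51A array with lomustine, assumed to vary like the other groups. No array was dropped from the values that are not so described.

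The transcripts of the edited genes themselves did not mark the lines. EIF2S1, which encodes eIF2-alpha, read 6.63 and 6.53 in untreated S51A and 6.2 to 6.80 in the untreated comparison arrays, and its probe set cannot show a single amino acid change. EIF2AK4, the GCN2 gene, was lowest in the GCN2 line without drug at 5.84, and EIF2AK3, the PERK gene, was lowest in the PERK line at 3.33, close to S51A no drug A at 3.38. EIF2AK2, the PKR gene, read 7.79 in the untreated PKR line, within the range of the others. Markers of blood cells, the source of KBM-7, were near background, with array means of 2.43 to 2.70 over the 12 measured. Fibroblast markers averaged 2.4 to 2.81 over 10. The 10 epithelial markers averaged 2.84 to 3.14 on the S51A arrays and 2.70 to 2.88 on the comparison arrays, and the part of that difference in the results was not tested. In such bulk RNA, fewer cells of a kind and less RNA per cell cannot be told apart.

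In the comparison lines, lomustine raised 20 of 17526 genes (0.114%) and lowered 8 (0.0456%) at an adjusted p under 0.05 in limma. Those that rose included effectors of the integrated stress response (CHAC1, DDIT4, ULBP1, SESN2, ATF3 and DDIT3), immediate-early genes (EGR1, JUN, DUSP1 and FOSB) and heat shock genes (DNAJB1, BAG3, ZFAND2A and DNAJB4). In S51A, 1 gene passed, EGR1 (0.00571%). The difference between the 2 responses passed for 0 genes (0%). The lowest adjusted p was 0.968. An unadjusted p under 0.05 was found for 445 genes (2.54%), fewer than the share of 0.05 that chance alone would give. Of these, 167 (0.953%) had the higher change in S51A and 278 (1.59%) the lower. On simulated data of the same size, the test recovered 14% of true differences of 1 log2 unit and 88% of those of 2 units. The simulation changed 100 genes at each size and gave every array the same spread for a gene. No simulated array stood apart as S51A lomustine B did, so the 88% does not carry over to these arrays. Most differences of 1 unit could not be seen even there. CHAC1 alone passed without PAR lomustine A, and alone without both arrays that stood apart. With S51A lomustine A left out, so that S51A lomustine B alone stood for treated S51A, 1086 genes passed for the difference and 4062 for S51A. Without S51A no drug A, 0 passed for S51A. In the comparison lines, 4 genes passed without line PAR, 8, 9 and 12 without GCN2, PKR and PERK, and 10 to 67 with 1 array of PAR or S51A left out.

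**Figure D1:**
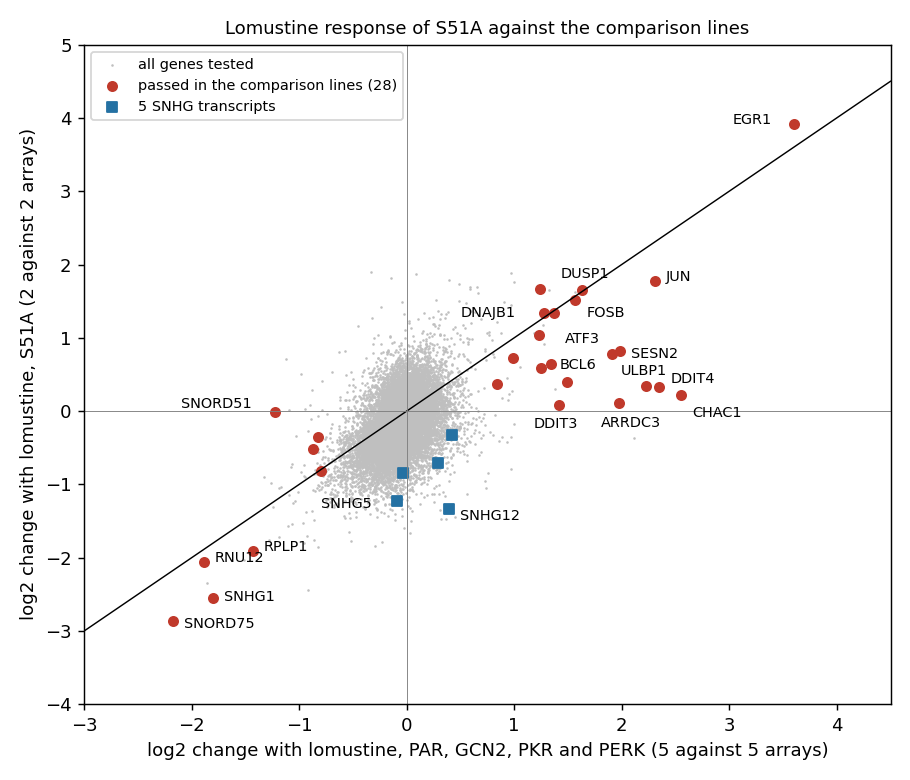
Log2 change with lomustine in S51A (vertical axis, 2 against 2 arrays) against that in PAR, GCN2, PKR and PERK (horizontal axis, 5 against 5 arrays) for 17526 genes; red points passed the test in the comparison lines, blue squares are 5 host transcripts of small nucleolar RNAs, and the diagonal marks equal change. EGR1, DUSP1, FOSB and DNAJB1 lie close to the diagonal, and CHAC1, DDIT4, ULBP1 and ARRDC3 lie near 0 in S51A. From S51A lomustine A alone, the changes of these last 4 were 0.17, 0.07, 1.09 and 0.65 in that order. SNHG12 (0.39 and -1.33) and SNHG5 (-0.09 and -1.23) lie well below the diagonal.

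CHAC1, which encodes an enzyme that breaks down glutathione, had the smallest p of all genes for the difference. Without drug it read 5.08 and 5.23 in PAR, 5.33 in GCN2, 4.68 in PKR and 4.42 in PERK, and with lomustine 6.89 and 8.17 in PAR, 8.0 in GCN2, 7.21 in PKR and 7.22 in PERK. In S51A it read 5.27 and 4.81 without drug and 5.21 and 5.30 with lomustine. The arms did not overlap in the comparison lines and overlapped in S51A. CHAC1 rose by 2.55 (SE 0.211, adjusted p = 0.000525) in the comparison lines, or 5.87-fold, against a change of 0.22 (SE 0.333) in S51A. The S51A change minus the comparison change was -2.34 (SE 0.394, 95% interval -3.20 to -1.47), with an unadjusted p of 9.3e-05 and an adjusted p of 0.968. Without S51A lomustine B and PAR lomustine A the difference was -2.60 (SE 0.260, adjusted p = 0.0159), and without PAR lomustine A alone -2.56 (SE 0.247, adjusted p = 0.0112). In the 25 alternatives the difference kept its sign, with adjusted p from 0.0112 to 1.

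DDIT4, which encodes REDD1, an inhibitor of the growth kinase complex mTORC1, behaved alike in size. It read 4.05 and 3.61 in PAR, 3.59 in GCN2, 3.91 in PKR and 3.39 in PERK without drug, and 6.79 and 6.93, 5.83, 5.63 and 5.11 with lomustine in the same order. S51A read 3.43 and 3.20 without drug and 3.39 and 3.90 with lomustine, so its arms overlapped. DDIT4 rose by 2.35 (SE 0.222, adjusted p = 0.00127) in the comparison lines, most in PAR (3.04) and least in PKR and PERK (1.72 each). The difference of responses was -2.02 (SE 0.415), and -2.19 without the 2 arrays. SESN2, which encodes sestrin 2, another inhibitor of mTORC1 signalling, had a change above 0 in S51A that did not pass. It read 4.73 to 5.05 without drug and 6.65 to 7.11 with lomustine in the comparison lines, and 4.39 and 4.05 without drug and 5.46 and 4.62 with lomustine in S51A. Neither pair of arms overlapped. SESN2 rose by 1.98 in the comparison lines, its change in S51A was 0.82 (SE 0.251, adjusted p = 0.592), and the difference was -1.17 (SE 0.297), or -0.76 without the 2 arrays.

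ULBP1, a ligand of the natural killer cell receptor NKG2D and a known ATF4 target, showed how far S51A lomustine B moved a value. The comparison lines read 6.24 to 6.67 without drug and 8.48 to 9.06 with lomustine, a rise of 2.23 (SE 0.231, adjusted p = 0.00273). In S51A ULBP1 read 6.01 and 5.86 without drug, and 7.02 on lomustine A but 5.53 on lomustine B. The mean change in S51A was 0.34, and 1.09 from lomustine A alone. The difference from the comparison lines was accordingly -1.89 (SE 0.432) with all arrays and -1.07 (SE 0.206) without the 2, with unadjusted p of 0.00108 and 0.000325. ARRDC3, an arrestin-domain gene that restrains receptor signalling and glucose uptake, had the same split. It read 6.89 and 6.18 without drug and 7.19 and 6.10 with lomustine in S51A, against 5.81 to 6.48 and 7.73 to 8.33 in the comparison lines. Its difference was -1.87 (SE 0.435), or -1.47 without the 2 arrays.

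The transcription factors of the program gave a mixed picture. ATF4 is regulated largely through translation, which these arrays do not measure. Its transcript read 8.06 to 8.36 without drug and 8.42 to 8.78 with lomustine in the comparison lines, a change of 0.42 (adjusted p = 0.270), and 8.20 and 8.18 against 8.35 and 8.50 in S51A. The difference of responses was -0.19 (SE 0.196, 95% interval -0.62 to 0.24). DDIT3, which encodes the pro-apoptotic factor CHOP, read 1.97 to 2.35 without drug, below the median of all values, and 2.85 to 4.63 with lomustine in the comparison lines. In S51A it read 2.11 and 2.35 without drug and 2.46 and 2.17 with lomustine, at background in both arms. DDIT3 rose by 1.42 (SE 0.215, adjusted p = 0.0317) in the comparison lines and its difference was -1.33 (SE 0.402), while its second probe set, with a mean of 1.47, showed no such change (0.08 and 0.09). ATF3, a stress-induced repressor, read 3.46 and 3.72 without drug and 4.43 and 4.31 with lomustine in S51A, so those arms did not overlap. The comparison arrays read 2.90 to 4.13 and 5.11 to 6.19, a rise of 1.91 (SE 0.280, adjusted p = 0.0273), and the difference was -1.13 (SE 0.524, unadjusted p = 0.0536). Of the 9 such factors tested, 1, DDIT3, had a difference below 0 at an unadjusted p under 0.05 (1.59% of all genes did), and the median over the 9 was -0.19, against -0.06 over all genes.

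**Figure D2:**
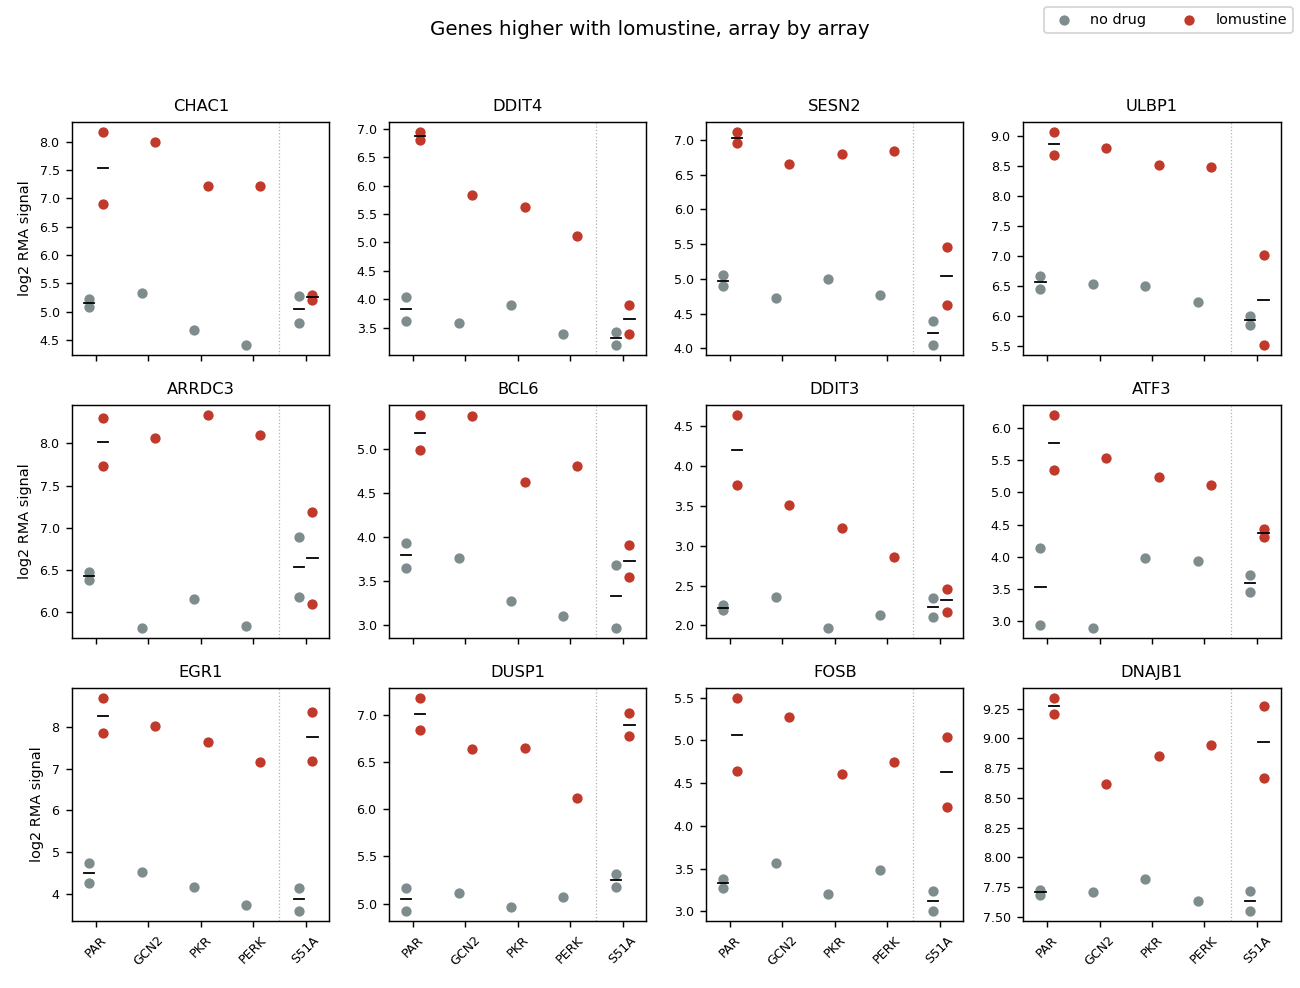
Log2 signal of 12 genes that passed the test in the comparison lines, one panel per gene, by line (horizontal axis) for no drug (grey) and lomustine (red); each point is 1 array and the bars mark means of 2 arrays. In S51A the lomustine points of CHAC1, DDIT4, ARRDC3 and DDIT3 overlap those without drug, whereas those of EGR1, DUSP1, FOSB and DNAJB1 lie above them as in the other lines.

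Across the 20 stress effectors downstream of ATF4 and CHOP that were tested, 4 rose in the comparison lines and 0 passed for the difference. At an unadjusted p under 0.05, 5 had the smaller change in S51A (CHAC1, DDIT4, ULBP1, SESN2 and STC2) and 0 the larger, against 1.59% and 0.953% of all genes, and without the 2 arrays 6 had the smaller change, against 1.43%. The median difference of the list was -0.11, close to that of all genes. Other effectors were near 0 in both responses: GDF15, a stress-induced cytokine, changed by -0.11 in the comparison lines and 0.03 in S51A, and VLDLR, a lipoprotein receptor, by -0.02 and 0.07. STC2, which encodes the secreted glycoprotein stanniocalcin 2, changed by 0.69 in the comparison lines (adjusted p = 0.321) and -0.37 in S51A, a difference of -1.06 (SE 0.339).

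Genes of amino acid synthesis and transport had smaller responses, and none of the 21 tested passed in the comparison lines or for the difference. At an unadjusted p under 0.05, 4 had a lower change in S51A, or 3 without the 2 arrays, against 1.59% and 1.43% of all genes. The median difference was -0.27, or -0.01 without them, against -0.06 and 0.02 over all genes. ASNS read 5.51 to 6.50 without drug and 6.43 to 7.39 with lomustine in the comparison lines. In S51A ASNS read 5.98 and 6.18 against 6.17 and 5.86. Its changes were 0.82 and -0.06. CTH, which makes cysteine from cystathionine, changed by 0.80 and -0.33. SLC7A11, the cystine importer, changed by 0.44 and -0.83, and its partner SLC3A2, which carries it to the membrane, by 0.46 and -0.23. SLC7A11 read 6.55 on S51A lomustine A and 5.21 on lomustine B, and its difference of -1.27 became -0.66 without the 2 arrays. SLC38A2, a neutral amino acid importer, changed alike in both, by 0.74 and 0.70. Of the 18 aminoacyl-tRNA synthetase genes, 0 had an unadjusted p under 0.05 for the difference, against 2.54% of all genes.

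**Figure D3:**
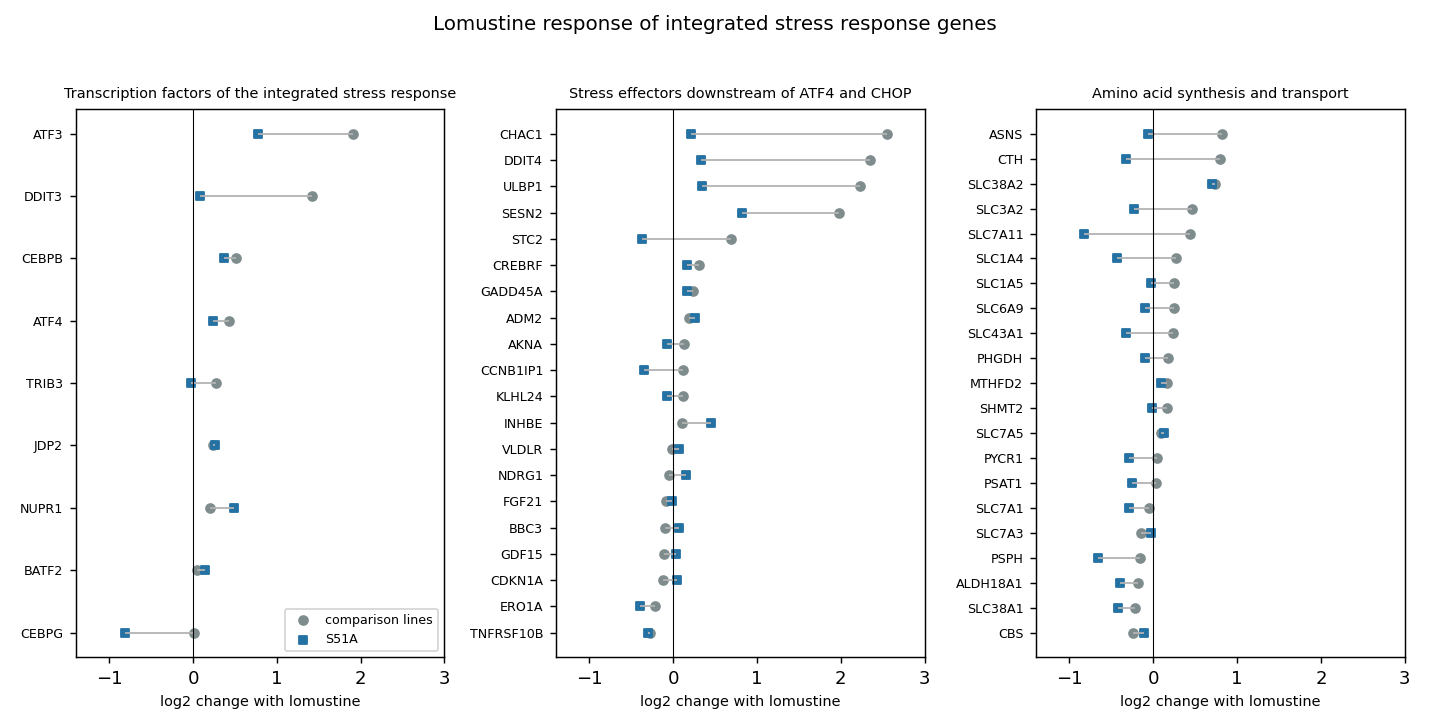
Log2 change with lomustine in the comparison lines (grey circles) and in S51A (blue squares) for the tested members of 3 lists of the integrated stress response, one row per gene. The gap between circle and square is widest for CHAC1, DDIT4 and ULBP1, and most members without a response in the comparison lines sit near 0 in both.

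HERPUD1, which takes part in degradation of proteins from the endoplasmic reticulum and is a target of ATF4, changed by 0.97 (adjusted p = 0.0783) in the comparison lines and -0.36 in S51A. The other tested genes of endoplasmic reticulum stress included HSPA5, the chaperone BiP, at -0.50 and -0.07. Of the 21 genes, 1, HERPUD1, had the lower change in S51A at an unadjusted p under 0.05, against 1.59% of all genes. BCL6, a transcriptional repressor, rose by 1.49 in the comparison lines and changed by 0.40 in S51A, a difference of -1.09 (unadjusted p = 0.00401).

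Of the 14 tested genes of upstream components, 0 had an unadjusted p under 0.05 for the difference, against 2.54% of all genes. So few genes cannot be told from that share. They covered the kinases, the eIF2 and eIF2B subunits and the phosphatase subunits. PPP1R15A, the stress-induced subunit that directs dephosphorylation of eIF2-alpha and is itself counted among ATF4 targets, changed by 0.82 (adjusted p = 0.104) in the comparison lines and by 0.74 in S51A. It read 4.37 and 4.38 without drug and 5.43 and 4.80 with lomustine in S51A. Among the 4 kinases, EIF2AK1, EIF2AK2, EIF2AK3 and EIF2AK4, the difference of responses lay between -0.52 and 0.05.

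Of the 25 immediate-early transcription factors tested, 3 rose in the comparison lines (EGR1, JUN and FOSB), and of the 22 immediate-early signalling and mRNA decay genes 1 did (DUSP1). EGR1, a zinc finger transcription factor, read 4.25 and 4.75 in PAR, 4.51 in GCN2, 4.16 in PKR and 3.73 in PERK without drug, and 7.87 and 8.69, 8.04, 7.65 and 7.17 with lomustine. In S51A EGR1 read 3.59 and 4.13 without drug and 8.36 and 7.18 with lomustine. EGR1 rose by 3.60 (SE 0.239, adjusted p = 0.000155) in the comparison lines and by 3.91 (SE 0.378, adjusted p = 0.008) in S51A, which is 12.2-fold and 15.1-fold. The difference was 0.31 (SE 0.447), with a 95% interval from -0.67 to 1.29. DUSP1, a phosphatase that switches off MAP kinases, read 5.32 and 5.18 without drug and 7.02 and 6.77 with lomustine in S51A. Its change there was 1.65 (SE 0.241, adjusted p = 0.230) against a rise of 1.63 in the comparison lines, a difference of 0.01 with an interval from -0.61 to 0.64. FOSB, an AP-1 subunit, changed by 1.51 in S51A and rose by 1.57 in the comparison lines, and its second probe set changed by 0.26 and 0.45. JUN, another AP-1 subunit, read 5.51 on S51A lomustine A and 3.48 on lomustine B. Its difference was -0.53 with all arrays and 0.46 without the 2, so its direction turned. Members that did not pass in the comparison lines included IER2, with changes of 0.98 there and 0.28 in S51A, and GADD45G, a growth arrest gene, with 0.56 and -0.59. Among the 22 signalling and decay genes, 1 had a lower change in S51A at an unadjusted p under 0.05 and 1 a higher one. Over all genes 1.59% and 0.953% did. The lower was GADD45G, with a difference of -1.15 (SE 0.297, unadjusted p = 0.00246), and the higher CCN1, with 1.20 (SE 0.410, unadjusted p = 0.0139). Of the 25 transcription factors, 0 had an unadjusted p under 0.05 for the difference, and 2 had a higher change in S51A without the 2 arrays, against 1.52% of all genes. These 2 were EGR1, at 0.80, and the nuclear receptor NR4A3, at 0.62.

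Heat shock genes likewise gave 0 of 14 at an unadjusted p under 0.05 for the difference, against 2.54% of all genes. Their median difference was -0.23, and -0.07 without the 2 arrays, against -0.06 and 0.02 over all genes. For 8 of the 14 the change in S51A was below that of each of the 4 lines, against 31.9% of all genes. DEDD2 changed by 0.64 in the comparison lines and -0.19 in S51A, and CHORDC1 by 0.19 and -0.70. DNAJB1, which encodes a cochaperone of HSP70, read 7.55 and 7.72 without drug and 9.27 and 8.66 with lomustine in S51A. Its changes were 1.28 in the comparison lines, where it passed, and 1.34 in S51A. ZFAND2A, which encodes a proteasome-associated protein, changed by 1.37 and 1.33, and BAG3, another HSP70 cochaperone, by 1.25 and 0.58. Without the 2 arrays, 6 genes passed in S51A (EGR1, DUSP1, FOSB, JUN, ZFAND2A and HSPA1L), and each had a change above 0. The remaining genes that rose in the comparison lines were SERTAD1, a cyclin-dependent kinase regulator (1.24, and 1.66 in S51A), NFKBIZ, a nuclear regulator of NF-kB targets (1.23 and 1.04), DNAJB4, another cochaperone (0.98 and 0.73), MXD1, a partner of MAX (1.34 and 0.64), and TMEM79, a transmembrane protein gene (0.84 and 0.37). MXD1 had a second probe set, with a mean of 2.11, that changed by 0.40 and 0.69.

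Of the 20 genes that rose in the comparison lines, 13 had a change in S51A below that in each of the 4 lines, where 31.9% of all genes did, and 2 had one above, where 15% did. These genes were chosen for a high change in the comparison arrays, so nothing is read from that share. The S51A arrays entered that choice through the pooled spread, though not through the size of the change, so the shares in S51A are a description too. All 20 had a change above 0 in S51A, whereas 10748 of the 17526 genes had one below 0. The arms did not overlap for 12 of them, with lomustine higher, against 10.9% of all genes. At an unadjusted p under 0.05, 10 of the 20 were higher in S51A, against 1.51% of all genes. Over 17526 genes the 2 responses, which share no array, correlated with r = 0.450, and 0.369 without the 2 arrays, which describes these arrays and carries no test since genes are not independent.

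In the HRI line, which is no comparison line here, CHAC1 changed by 0.90, between S51A and the 4 lines (2.37 to 2.81). DDIT4 changed there by 1.75 and DDIT3 by 0.75, within the range of the 4 lines, and ULBP1 by 2.38, above it. ATF3 (0.83), SESN2 (1.32), ARRDC3 (1.35) and BCL6 (1.03) changed in HRI by less than in each of the 4 lines. So did EGR1, at 3.16. No test was made of these values.

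Host transcripts of small nucleolar RNAs are mostly noncoding RNAs whose introns carry the guides for ribosomal RNA modification. Their spliced transcripts are usually removed by a translation-dependent decay pathway, nonsense-mediated decay. Of the 15 tested, 8 had a lower change in S51A at an unadjusted p under 0.05 and 0 a higher one, against 1.59% and 0.953% of all genes. Without the 2 arrays 7 were lower, against 1.43%. The median difference was -0.76, and -0.51 without the 2 arrays, against -0.06 and 0.02 over all genes. None of these differences passed the adjusted test with all arrays or without the 2.

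SNHG12 read 5.53 and 5.95 in PAR, 5.53 in GCN2, 5.03 in PKR and 4.81 in PERK without drug, and 6.09 and 6.03, 5.84, 5.62 and 5.21 with lomustine. In S51A it read 5.73 and 6.35 without drug and 5.13 and 4.28 with lomustine, so the S51A arms did not overlap, with lomustine lower, as for 19.6% of all genes, and ran opposite to the other lines. Its changes were 0.39 and -1.33, a difference of -1.72 (SE 0.337, unadjusted p = 0.000325), or -1.30 without the 2 arrays. SNHG5 stayed between 4.72 and 5.20 on all 10 comparison arrays. In S51A SNHG5 read 5.78 and 5.43 without drug and 4.55 and 4.20 with lomustine. The untreated S51A arrays were thus above, and the treated ones below, every comparison array. SNHG17 read 5.30 and 5.23 without drug and 4.78 and 4.34 with lomustine in S51A, against 4.82 to 5.67 over both arms of the comparison lines, so its treated S51A arrays were below every comparison array. SNHG32 differed by -0.76, SNHG8 by -0.81, ZFAS1 by -0.80, EPB41L4A-AS1 by -0.86 and GAS5 by -0.97.

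**Figure D4:**
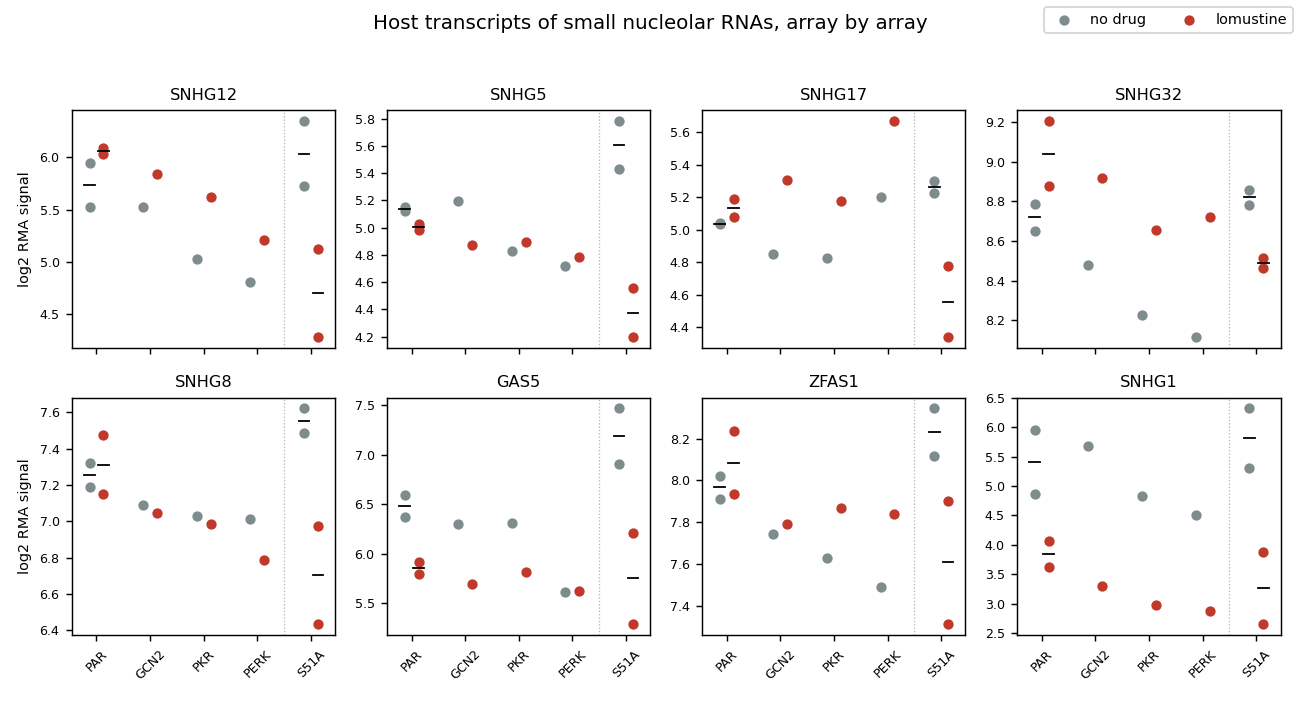
Log2 signal of 8 host transcripts of small nucleolar RNAs by line (horizontal axis) for no drug (grey) and lomustine (red); each point is 1 array and the bars mark means of 2 arrays. In S51A both lomustine arrays lie below both untreated ones in every panel, while SNHG12 and SNHG32 read higher with lomustine in each comparison line and SNHG1 lower.

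SNHG1 fell in the comparison lines, by 1.80 (adjusted p = 0.046), and changed by -2.55 in S51A. Noncoding RNAs were 4 of the 8 genes that fell. SNORD75, a box C/D small nucleolar RNA from a GAS5 intron, fell by 2.18 and RNU12, a small nuclear RNA of the minor spliceosome, fell by 1.89. Their changes in S51A were -2.86 and -2.06. SNORD51, from an intron of EEF1B2, fell in the comparison lines and had a change of -0.01 in S51A, with overlapping arms. It fell by 1.22 in the comparison lines, from 6.20 to 7.03 without drug to 5.27 to 5.71 with lomustine, and read 7.0 and 6.61 without drug and 6.67 and 6.92 with lomustine in S51A. The difference was 1.21 (SE 0.305, unadjusted p = 0.00207), and 1.06 without the 2 arrays. RPLP1, a ribosomal stalk protein, fell by 1.43 and changed by -1.90 in S51A. The other 3 that fell were ZIC5, TIMM21, a subunit of mitochondrial protein import, and DLX6, a homeobox gene. Their changes in S51A were -0.51, -0.35 and -0.82, against -0.88, -0.82 and -0.80. Among 158 small nucleolar and Cajal body RNAs tested, 3 had a higher and 1 a lower change in S51A at an unadjusted p under 0.05, close to the 0.953% and 1.59% of all genes.

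Of the 37 tested histone genes and related entries, 9 had a lower change in S51A at an unadjusted p under 0.05, also 9 without the 2 arrays, and 0 a higher one with all arrays. Over all genes the shares were 1.59% lower, 1.43% lower without the 2 arrays and 0.953% higher. H2AC21, with the smallest p among them, read 9.40 and 9.37 without drug and 8.72 and 8.74 with lomustine in S51A, against 9.40 to 9.81 and 9.76 to 10.1 in the comparison lines. Its difference was -0.98 (SE 0.213, unadjusted p = 0.000728). H2BC21 read 3.79 on S51A lomustine A and 2.79 on lomustine B, and its difference was -1.68 (SE 0.476). Histone genes are near copies of each other, and the array's probe sets may share signal between them.

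Some genes differed between lines already without drug. ZNF613, a zinc finger gene, read 4.30 and 3.92 in untreated S51A, 1.98 to 2.92 in the untreated comparison arrays, and 3.07 and 2.20 in S51A with lomustine. IRX2, a homeobox gene, read 4.23 and 4.22 in untreated S51A against 2.63 to 2.86. With lomustine it read 3.65 and 3.31. For both, the difference of responses (-1.84 and -0.86) came with a lower level in treated S51A that approached or stayed above that of the other lines. MIR147A, a microRNA gene, had the largest difference above 0 among those named by the rule, at 1.22 (SE 0.287). It read 3.60 and 2.99 without drug and 3.57 and 4.08 with lomustine in S51A, against 3.11 to 3.60 and 2.65 to 2.78 in the comparison lines. The other genes named for a difference above 0 did not pass. Among them were GOLGA2P1 (1.05), KRTAP5-2 (1.03), TRAV38-2DV8 (1.03), GSTT4 (1.17), ICMT-DT (0.82), TRBJ2-5 (0.76) and SLC52A2 (0.68). Without the 2 arrays these were 0.71, 0.62, 0.73, 0.67, 0.98, 0.88 and 0.64 in the same order. On S51A lomustine A and B, GOLGA2P1 read 2.81 and 3.49, KRTAP5-2 2.79 and 3.70, and GSTT4 3.29 and 4.36. KRTAP5-2 read 2.51 and 2.37 in untreated S51A, near the median of all values.

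**Figure D5:**
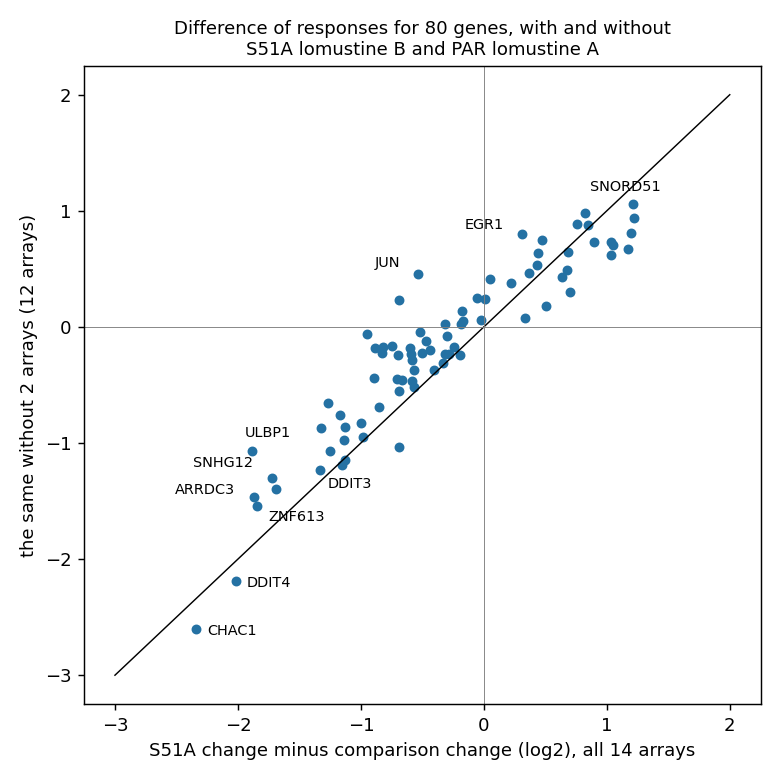
S51A change minus comparison change (log2) for the 80 genes named by rule, with all 14 arrays (horizontal axis) and without S51A lomustine B and PAR lomustine A (vertical axis); the line marks equal values. CHAC1 and DDIT4 are at least as far below 0 without the 2 arrays, ULBP1 moves from -1.89 to -1.07, and JUN changes sign.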

How the data were processed

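Transcripts were measured with an Affymetrix array on 24 arrays, of which the 10 arrays of the HRI line and the SA100 arm were used only for the filter, the choice of probe set and alternatives. The deposited values are log2 signals that the authors made with RMA and the package affy, per the submitters' processing notes; versions and filters are not given in the sources used here. RMA works to equalise the distributions of arrays, which can hide a shift common to all genes. The medians of the deposited values still differed, from 2.34 on PAR lomustine B to 2.58 on S51A lomustine B. Array signals saturate and carry background, so log2 changes of dim genes are understated. Of 53617 probe sets, 23871 had 1 gene symbol in the platform's annotation, 1842 had several and 27904 were not annotated; the last 2 kinds were left out. Symbols were updated through RefSeq for 90 probe sets. The probe set with the highest mean stood for each of 22395 genes, of which 632 had more than 1. Genes with a signal at or above the overall median on 2 or more of the 24 arrays were tested, 17526 in all, and 4869 were left out. No genome build of the probe sets was used, and coordinates are those of the RefSeq promoters.

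The fit used limma 3.58.1 in R 4.3.3 on 14 arrays, with 1 intercept per line, a lomustine term for PAR, GCN2, PKR and PERK and another for S51A (7 residual degrees of freedom). All tests were two-sided, with Benjamini-Hochberg adjustment over 17526 genes and a threshold of 0.05. Confidence intervals are 95%. The number of arrays limits the precision. The fit was tested on simulated data with 100 genes of each size, where 7.27% of calls were false. Tables were made with Python 3.11.15 and pandas 2.3.3.

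The comparison, the members and the 25 gene lists were chosen with earlier results of these data known. Named by rule were EGR1, ATF4, EIF2S1 and the 4 kinase genes; up to 10 genes per direction for the difference, filled by the smallest unadjusted p; up to 10 per direction for the comparison lines that moved the same way in all 4; up to 5 for S51A; and 2 to 4 per list. The letters were checked for pairing by the correlation over genes of the A minus B differences between arms, which was 0.334 in PAR and -0.386 in S51A, so they were not used to pair arrays. Alternatives covered the filter, probe sets, normalization, variance prior, samples in the fit, the block and arrays or lines left out.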

Additional observations from a re-analysis of the deposited data

Results flagged for a closer look

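The 5 arrays of each comparison arm were examined for a sample far from the others in the 80 named genes, in 160 groups, and 12 stood out. Chance gives about 1 in 20 such groups, so this number is near what chance gives. The S51A arms have 2 arrays and were not examined.

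With lomustine, RPLP1 read 4.091 on PAR B and 3.48 to 3.53 on the others, CTH 6.533 on PAR B against 5.54 to 5.76, and IER2, an immediate-early gene, 5.859 on PAR B against 4.93 to 5.19. PAR lomustine A was highest for HSPA5 at 9.325 against 8.59 to 8.80 and for XRCC1, a scaffold of base excision repair, at 7.814 against 7.36 to 7.42. It was lowest for TRAV38-2DV8 at 3.187 against 3.87 to 4.13. GSTT4 was lowest on GCN2 lomustine, at 2.497 against 3.03 to 3.21.

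Without drug, XRCC1 was highest on PAR A at 7.810 against 7.35 to 7.47, and TIA1, a stress granule protein, was highest on PAR B at 3.688 against 3.08 to 3.23. ZIC5, a zinc finger factor, was lowest on GCN2 at 5.307 against 5.69 to 5.80. The PERK array was lowest for ME1, malic enzyme, at 6.566 against 7.08 to 7.22 and for KRT8, a keratin, at 3.385 against 3.64 to 3.71.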

How the results depend on the processing

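The difference of responses passed for 0 genes in the settings that changed the filter, probe sets, normalization, prior, samples in the fit or lines, and under the replicate block. It passed for 1, CHAC1, without S51A lomustine B and PAR lomustine A together, also when quantile normalized again, an alternative chosen after seeing the data. Leaving out 1 array at a time gave 0 to 1086, with 1 (CHAC1) without PAR lomustine A and 1086 (177 higher, 909 lower) without S51A lomustine A, which leaves S51A lomustine B alone. For the comparison lines, 28 genes passed. The count was 56 when quantile normalized again, 14 with arrays centred on their medians, 12 with all 24 arrays, 0 with PAR alone and 44 with HRI added. Without line PAR, GCN2, PKR or PERK it was 4, 8, 9 and 12, where fewer arrays were fitted. It was 208 without the 2 arrays (all 28 among them), 266 with these quantile normalized again, and 10 to 67 with 1 array left out. In S51A, 1 gene passed. The count was 0 with centred arrays, 2 with all 24 arrays, 0 with PAR alone, 0 without line PAR, 6 without the 2 arrays and 5 with these quantile normalized again. It was 0 to 4062 with 1 array left out, the highest without S51A lomustine A and 0 without S51A no drug A. The replicate block gave 0, 27 and 1 genes for the 3 comparisons, and with crossed S51A letters 0, 55 and 2. Where a count moved, the cause was not tested. Centring moved the median difference over all genes from -0.06 to -0.15. Over the named genes, no called value turned its direction; in 2520 of the comparisons of a gene with an alternative the call and direction were kept, 137 lost the call, 35 gained it and 80 moved.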

Other observations

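RAET1K, a pseudogene of the same gene family as ULBP1, was picked out after its values were seen. It read 1.52 to 2.38 without drug and 2.49 to 5.52 with lomustine in the comparison lines, and 1.73 and 2.69 without drug and 2.10 and 1.58 with lomustine in S51A. The difference of responses was -2.48 (SE 0.893, unadjusted p = 0.0176), and -2.73 without the 2 arrays, and neither passed after adjustment. Shared signal with ULBP1 was not tested. CCN1, a matricellular growth regulator, was lower in untreated S51A (5.37 and 4.72) than in the comparison lines (6.06 to 7.37). Its changes were -0.79 in the comparison lines and 0.41 in S51A. HMOX1, haem oxygenase and an NRF2 target, changed by 1.05 (adjusted p = 0.104) and 0.61. PMAIP1, which encodes the pro-apoptotic protein NOXA, changed by 0.89 (adjusted p = 0.0842) and 0.18.

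All 17 tested genes of G2 and mitosis had a difference below 0, as did 58.6% of all genes. At an unadjusted p under 0.05, 0 of them differed, against 2.54% of all genes. The change in S51A was below that of each of the 4 lines for 16, against 31.9% of all genes. The median difference was -0.29 with all arrays and -0.08 without the 2. All 20 S phase genes had a difference below 0, with a median of -0.13, and 0.01 without the 2 arrays. For repair of crosslinked and alkylated DNA, the median over 21 genes was -0.41, and -0.09 without the 2 arrays. Of the p53 targets, 3 of 24 (SESN2, TP53I3 and PMAIP1) had a lower change in S51A at an unadjusted p under 0.05, and 1 without the 2 arrays, against 1.59% and 1.43% of all genes. CDKN1A, the p53-induced inhibitor of cyclin-dependent kinases, changed by -0.12 and 0.05.

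Among 10 epithelial markers, 2 had a higher change in S51A at an unadjusted p under 0.05, against 0.953% of all genes, and 0 did without the 2 arrays. KRT8 read 3.96 and 4.76 with lomustine in S51A against 3.41 to 3.69, and KRT19 read 3.0 on both arrays against 2.52 to 2.79. The difference for KRT8 was 0.70, and 0.30 without the 2 arrays.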
